A study of Mus musculus with 4 samples.

Results

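A set of 10 genes of growth factor and TGF-beta signalling was examined in recruited alveolar macrophages, cells that arise from monocytes and populate the airspaces of an injured lung. They are 10 of the 16360 gene symbols of the count table, matched by symbol: the ligand Tgfb1, the receptors Tgfbr1 and Tgfbr2, the latency protein Ltbp3, the intracellular mediators Smad3 and Smad7, and the growth factors Pdgfa, Pdgfb, Igf1 and Hbegf. All 10 were in the table and all 10 passed the filter on low counts. The cells came from male mice that carry R213G on both alleles of EC-SOD, the secreted antioxidant enzyme that Sod3 encodes, and from wild-type (WT) male mice, with 2 libraries per genotype. R213G replaces an arginine by a glycine where the enzyme binds the matrix. Mice of both genotypes were 8 to 10 weeks old, of the strain the labels spell CD57/Bl6, and had received bleomycin, a drug used to injure the lung and model fibrosis, as 100 µl of a 1 U/ml solution given intratracheally. Sorting took place on day 7 and kept cells that were CD64 Hi, SigF Lo and CD11b Hi, so there were no uninjured animals, no other time and no resident macrophages among the libraries. The labels give n = 2 without saying whether a library came from 1 mouse or from a pool, so a p-value reflects only how these libraries vary, which may be partly technical.

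As background, TGF-beta is secreted in a latent form, held inactive by its own propeptide and tethered to a binding protein, and is released by integrins, proteases or thrombospondin. The active dimer brings type II and type I receptors together, and the type I receptor then phosphorylates Smad2 and Smad3, which enter the nucleus with Smad4, while Smad7 is induced as a feedback inhibitor. Macrophages that enter the injured lung are known sources of TGF-beta, of PDGF, which drives mesenchymal cells to divide and migrate, of IGF-1, which supports the survival of epithelial and mesenchymal cells, and of HB-EGF, a membrane-anchored ligand of the EGF receptor.

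The 250 bases before the annotated transcript start are shown for the ligand and both receptors, the 3 highest of the 10 genes per length, and for Ltbp3, the 1 gene whose genotype difference was wider than both gaps within a genotype. The sequences are RefSeq's, build GRCm38.p6, 5′ to 3′ on the strand of the gene. Capitals mark matches, on either strand, to a GC box (GGGCGG), to the core of a Smad binding element (CAGAC) or to an AP-1 site (TGANTCA). Searches for the TATA box used the letters TATAAA.
Tgfb1, chr7:25686752-25687001, plus strand: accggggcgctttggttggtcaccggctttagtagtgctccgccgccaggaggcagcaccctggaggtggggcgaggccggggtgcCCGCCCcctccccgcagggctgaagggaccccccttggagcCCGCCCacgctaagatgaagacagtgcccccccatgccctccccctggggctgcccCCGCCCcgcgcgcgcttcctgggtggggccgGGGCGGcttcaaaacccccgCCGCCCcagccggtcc
Tgfbr1, chr4:47352972-47353221, plus strand: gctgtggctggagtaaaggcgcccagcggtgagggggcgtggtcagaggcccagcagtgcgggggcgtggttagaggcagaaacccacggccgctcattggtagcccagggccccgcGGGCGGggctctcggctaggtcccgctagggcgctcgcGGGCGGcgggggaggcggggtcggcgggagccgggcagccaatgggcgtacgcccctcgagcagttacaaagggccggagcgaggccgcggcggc
Tgfbr2, chr9:116175364-116175613, minus strand: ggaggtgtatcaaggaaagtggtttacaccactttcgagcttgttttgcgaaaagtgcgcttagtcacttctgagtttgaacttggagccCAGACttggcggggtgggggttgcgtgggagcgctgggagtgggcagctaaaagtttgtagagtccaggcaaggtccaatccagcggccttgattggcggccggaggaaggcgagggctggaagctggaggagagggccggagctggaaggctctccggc
Ltbp3, chr19:5740650-5740899, plus strand: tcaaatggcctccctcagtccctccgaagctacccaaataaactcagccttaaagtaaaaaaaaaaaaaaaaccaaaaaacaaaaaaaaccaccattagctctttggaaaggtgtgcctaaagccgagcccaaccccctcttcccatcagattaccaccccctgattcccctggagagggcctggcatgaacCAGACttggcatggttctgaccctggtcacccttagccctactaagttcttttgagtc

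The Tgfb1 window held 5 GC boxes and 75.2% G and C, and the Tgfbr1 window shown held 2 GC boxes and 74.8%. A second Tgfbr1 window of the table, at chr4:47385966-47386215, held 0 GC boxes, 1 Smad core and 52.8% G and C. The Tgfbr2 window held 1 Smad core and 58.4% G and C, and the Ltbp3 window 1 Smad core and 47.2%. None of the 4 windows shown held a TATA box or an AP-1 site. Over all 32851 windows of this length in the table, 32.7% held a GC box, 42.2% the Smad core, 12.4% a TATA box and 6.75% an AP-1 site, and the median G and C content was 52.4%. These matches describe letters and not sites bound in these cells. Windows on chromosome 18, which holds Smad7 and Hbegf, were left out of the search for the 10 genes. Apart from these, 7 of the 10 genes had a window, 9 windows in all. The windows of Igf1 and Pdgfa overlapped annotated exons and are not shown.

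The libraries held 33488569 (replicate 1) and 35176210 (replicate 2) counts for R213G and 33573116 (replicate 1) and 34111951 (replicate 2) for WT. R213G replicate 1 stood apart, with 13584 genes detected, against 15047 in R213G replicate 2 and 14598 and 15194 in the WT libraries. It was the lowest library for 5 of the 10 genes, as it was for 36.5% of the 13575 tested genes. Markers of the sorted population were high in all 4 libraries: Fcgr1, which encodes CD64, was at 249.9 and 250.5 CPM in R213G, against 261 and 243 CPM in WT, and Itgam, which encodes CD11b, at 859 and 721 CPM in R213G, against 886 and 760 CPM in WT. Siglecf, the resident macrophage marker the gate selects against, was at 12.1 and 11.6 CPM in R213G, against 10.8 and 10.8 CPM in WT. CPM are counts per 1000000 of the library size after TMM scaling. Sod3 itself had 4 and 47 counts in R213G, against 47 and 96 counts in WT, and a count per gene does not show the substitution.

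The first question was how strongly these cells expressed each factor. Per kilobase of annotated exon, Tgfb1 was the highest of the 10 genes at 105 CPM per kb on average over the 4 libraries, above 97.5% of the tested genes with a known length. The receptors followed, Tgfbr2 at 49.9 and Tgfbr1 at 48.7 CPM per kb, and their ranges over the libraries overlapped. Igf1 was at 20.0, Pdgfb at 12.96 and Pdgfa at 12.2 CPM per kb, and the ranges of Igf1 and Pdgfb and of Pdgfb and Pdgfa overlapped. Smad7 was at 5.11 and Ltbp3 at 3.73 CPM per kb, again with overlapping ranges. Smad3 at 1.59 and Hbegf at 0.384 CPM per kb were the lowest. The median over the tested genes was 4.69 CPM per kb, so Ltbp3, Smad3 and Hbegf were below the typical tested gene. The length is that of all annotated exons together, which is longer than any single transcript of a gene with alternative ends such as Igf1, and could place such a gene too low.

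**Figure D1:**
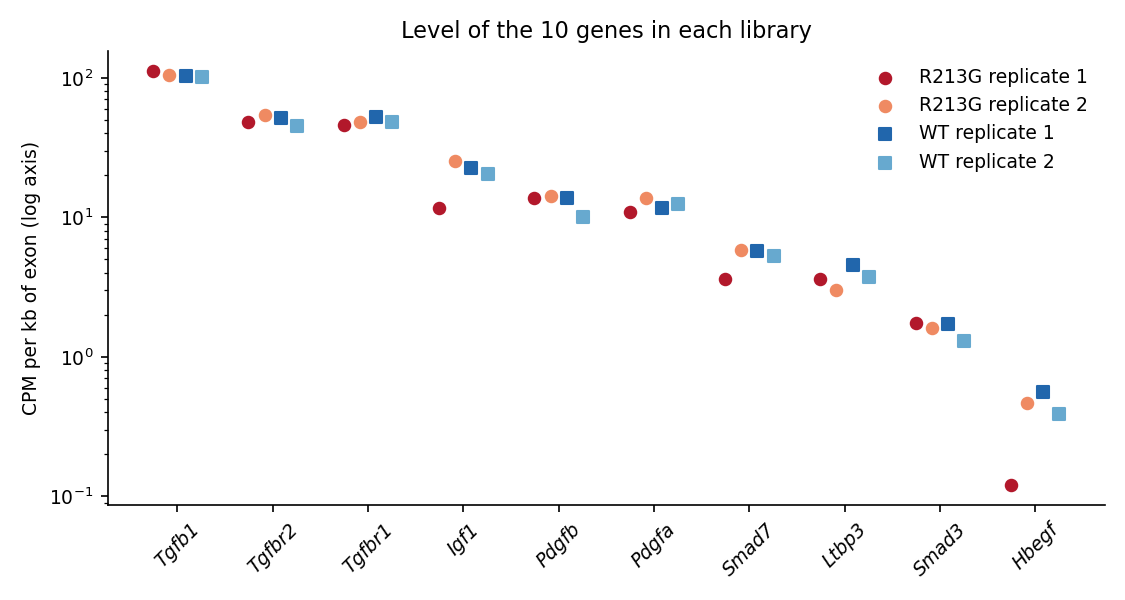
Level of the 10 genes in each library, as CPM per kb of annotated exon on a log axis, with R213G libraries as circles and WT libraries as squares and no error bars, since each point is 1 library. Tgfb1 lies above 102 CPM per kb in every library. R213G replicate 1 is the lowest point for Igf1, Smad7 and Hbegf and, by a smaller margin, for Tgfbr1 and Pdgfa.

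The second question was whether any of these genes differed between R213G and WT macrophages. None did by the test: 0 of 10 were called in either direction (edgeR quasi-likelihood, adjusted p = 0.9996 for each), where 0% of all 13575 tested genes were called. At an unadjusted p under 0.05 there were 0 of 10, against 2.22% of all tested genes, and the smallest unadjusted p of the 10, that of Ltbp3, was 0.121 by edgeR. DESeq2 and limma voom also called 0 of the 10 and had 0 of 10 at an unadjusted p under 0.05. The log2 fold change, R213G minus WT, was positive for 5 genes and negative for 5, with a median of -0.03, against -0.01 over all tested genes. The R213G and WT libraries did not overlap for 3 of the 10, against 28.9% of all tested genes, which is close to that background. With 2 libraries a side the smallest two-sided p of an exact permutation test is 0.333, so no such test was used. In bulk RNA of a sorted population, fewer cells expressing a gene and less RNA per cell cannot be told apart.

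**Figure D2:**
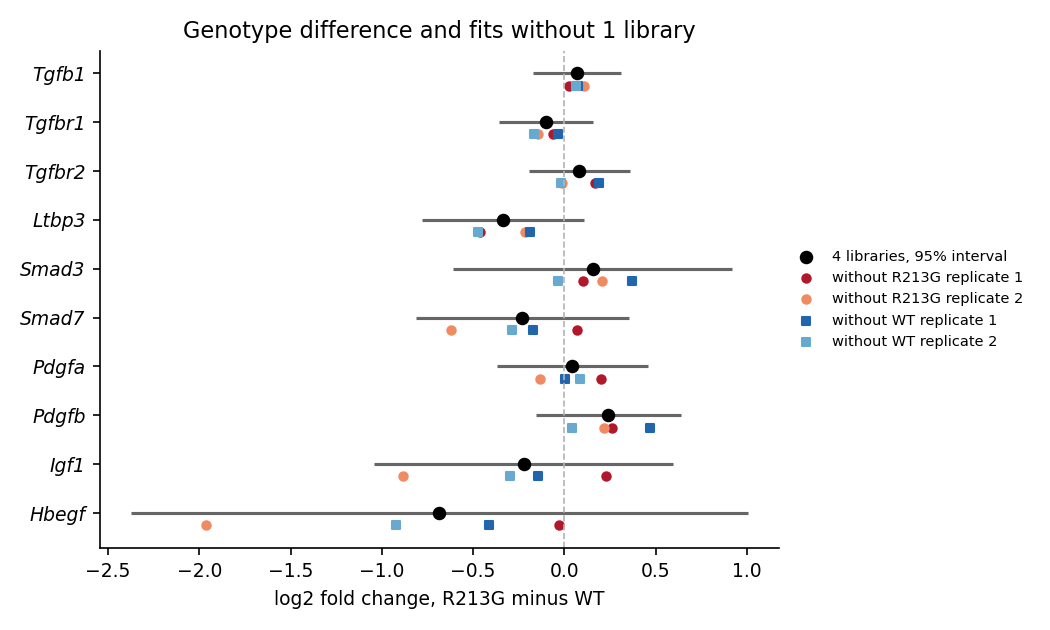
Log2 fold change of each gene, R213G minus WT, with black points and lines for the fit of all 4 libraries and its 95% interval and coloured points for fits without 1 library. All 10 intervals cross 0, and the points without R213G replicate 1 and without R213G replicate 2 lie furthest apart for Hbegf, Igf1 and Smad7.

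Tgfb1, the ligand and the gene with the steadiest level of the 10, had 561 and 527 CPM in R213G libraries 1 and 2, against 521 and 516 CPM in WT libraries 1 and 2. Both R213G libraries were above both WT libraries, with a gap between the genotypes that was small beside the level itself. Its log2 fold change was 0.07 ± 0.11 (SE, n = 2 libraries per genotype), and the 95% interval of the fold, 0.887 to 1.24, does not reach 1.5-fold in either direction. Over the 4 libraries its highest and lowest values differed by 0.12 on the log2 scale, a spread smaller than that of 96.2% of tested genes. The gene lies on chromosome 7 from 25687002 to 25705077 (GRCm38, plus strand). The other ligands were barely detected: Tgfb2 had 0 and 0 counts in R213G, against 0 and 12 in WT, and Tgfb3 had 0 and 8 counts in R213G, against 0 and 0 in WT.

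Ltbp3, which binds latent TGF-beta and takes it to the extracellular matrix, had 32.5 and 27.3 CPM in R213G, against 41.5 and 34.0 CPM in WT. Both R213G libraries were below both WT libraries. Its log2 fold change was -0.34 ± 0.20 with a 95% interval of -0.78 to 0.11, and it ranged from -0.19 without WT replicate 1 to -0.47 without WT replicate 2. Ltbp3 was the 1 gene of the 10 whose difference between genotypes (0.33 on the log2 CPM scale) was wider than the gap between the R213G libraries (0.25) and that between the WT libraries (0.29). That held for 16.7% of all tested genes, so 1 of 10 is not above the background. The gene lies on chromosome 19 from 5740904 to 5758532 (GRCm38, plus strand). The related Ltbp1, Ltbp2 and Ltbp4 are not analysed here.

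Tgfbr1, the type I receptor kinase that phosphorylates Smads, had 299 and 316 CPM in R213G, against 344 and 314 CPM in WT. The libraries overlapped, and the log2 fold change was -0.10 ± 0.11 with a 95% interval of -0.36 to 0.16. Tgfbr2, the type II receptor that binds the ligand first, had 395 and 445 CPM in R213G, against 425 and 368 CPM in WT. These also overlapped, with a log2 fold change of 0.08 ± 0.12 and a 95% interval of -0.20 to 0.36. Within each library the receptors stood near parity per length: Tgfbr2 was 1.06 and 1.12 times Tgfbr1 in R213G and 0.986 and 0.935 times in WT.

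Smad3, the receptor-activated Smad, had 9.61 and 8.94 CPM in R213G, against 9.50 and 7.17 CPM in WT. The gap between the WT libraries, 0.40 on the log2 scale, exceeded the difference of 0.17 between genotypes. Its log2 fold change was 0.16 ± 0.34, with a 95% interval of -0.61 to 0.92. Smad2, which the same receptor activates, was higher per length than Smad3 in every library, by 3.81 and 3.16 times in R213G and 3.51 and 4.04 times in WT.

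Smad7, the inhibitory Smad that TGF-beta induces, had 16.3 and 26.2 CPM in R213G, against 26.0 and 24.0 CPM in WT. R213G replicate 1 was low and the other 3 libraries lay between 24.0 and 26.2 CPM. The log2 fold change was -0.23 ± 0.26 with all libraries, with a 95% interval of -0.81 to 0.35, but 0.07 without R213G replicate 1 and -0.62 without R213G replicate 2.

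Pdgfa, which encodes the A chain of platelet-derived growth factor, had 34.3 and 43.2 CPM in R213G, against 36.5 and 38.6 CPM in WT. The R213G libraries enclosed the WT libraries, and the log2 fold change was 0.04 ± 0.19 with a 95% interval of -0.37 to 0.46. An antisense transcript, 6330403L08Rik, overlaps its exons and had 13.5 and 15.2 CPM in R213G, against 17.2 and 14.6 CPM in WT, so the 2 cannot be separated without the strand setting of the counting, which is not given in the sources used here although the libraries were directional.

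Pdgfb, the B chain of the same factor, had 57.5 and 59.3 CPM in R213G, against 56.8 and 42.1 CPM in WT. Both R213G libraries were above both WT libraries, and WT replicate 2 was the low one. Its log2 fold change was 0.24 ± 0.18 with a 95% interval of -0.15 to 0.64, with 0.04 without WT replicate 2 and 0.47 without WT replicate 1. Per length Pdgfb was 1.26 and 1.03 times Pdgfa in R213G and 1.17 and 0.818 times in WT.

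Igf1, a survival and growth factor for fibroblasts and epithelium, had 116 and 250.1 CPM in R213G, against 225 and 202 CPM in WT. R213G replicate 1 was low and R213G replicate 2 was the highest of the 4, so the genotypes overlapped. The gap between the R213G libraries was 1.11 on the log2 scale, against 0.15 between the WT libraries and a difference of 0.33 between genotypes. The log2 fold change was -0.22 ± 0.33 with a 95% interval of -1.04 to 0.60. Leaving out R213G replicate 1 gave 0.23, and leaving out R213G replicate 2 gave -0.89.

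Hbegf, the membrane-anchored EGF receptor ligand, was the lowest of the 10 genes, with 20 and 78 counts in R213G, against 89 and 65 counts in WT. In CPM these are 0.586 and 2.24 in R213G, against 2.69 and 1.89 in WT. The exact Poisson 95% interval of the R213G replicate 1 count, 12.2 to 30.9, lay below those of the other libraries, the lowest of which, for WT replicate 2, was 50.2 to 82.8. The intervals cover counting error only. The log2 fold change was -0.68 ± 0.75 with a 95% interval of -2.37 to 1.01, -0.03 without R213G replicate 1 and -1.96 without R213G replicate 2.

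**Figure D3:**
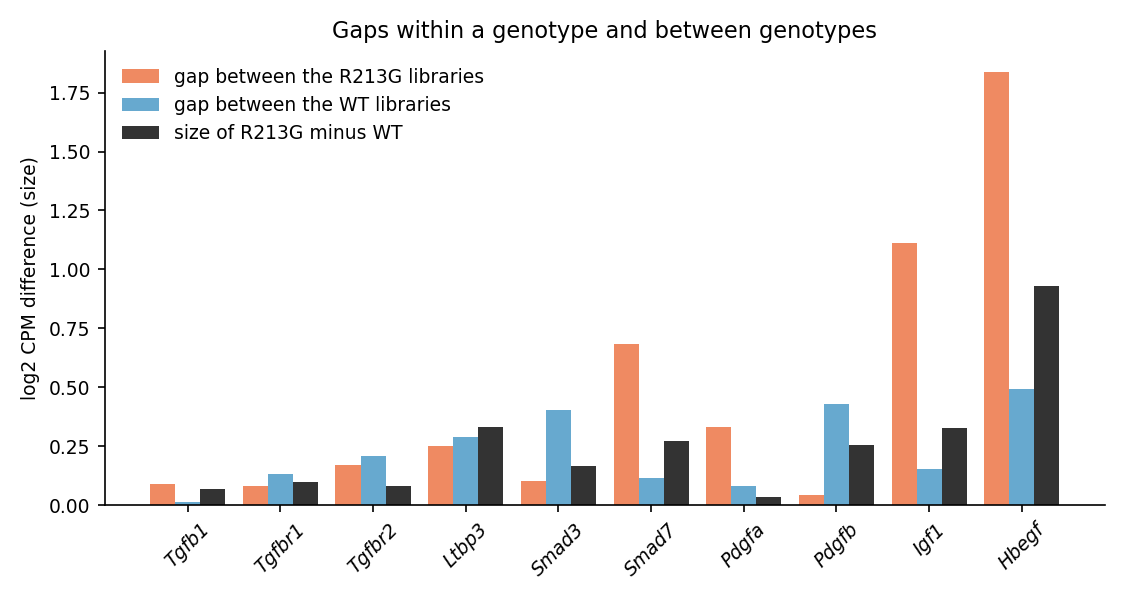
Size of the log2 CPM difference between the R213G libraries, between the WT libraries and between the genotype means, for each of the 10 genes. The bar between genotypes is the tallest of the 3 for Ltbp3, at 0.33, and for no other of the 10 genes, while the R213G gap is the tallest for Igf1 at 1.11 and Hbegf at 1.84.

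R213G replicate 1 was the lowest library for Igf1, Smad7 and Hbegf and, by a smaller margin, for Tgfbr1 and Pdgfa. The marker lists were not even between libraries either. The dendritic cell list (8 of 8 markers in the table) summed to 205 and 59.5 CPM in R213G, against 195 and 50.8 CPM in WT, with Ccr7 the highest gene, so it was high in replicate 1 of both genotypes. The eosinophil and mast cell list (3 of 9, 52.7 and 25.6 CPM in R213G, against 47.3 and 24.3 CPM in WT) was also high in replicate 1 of both genotypes, through Kit. Kit, its highest gene, was at 39.7 and 12.3 CPM in R213G, against 34.95 and 12.4 CPM in WT. Siglecf of that list was nearly even between libraries, and Ear1 was at 0.967 and 1.72 CPM in R213G, against 1.51 and 1.17 CPM in WT. The B and plasma cell list (3 of 6, 23.9 and 8.10 CPM in R213G, against 18.5 and 6.59 CPM in WT, led by Ighm) was high in replicate 1 of both genotypes as well. The fibroblast and mural list (4 of 11, 67.9 and 148 CPM in R213G, against 60.5 and 115 CPM in WT) was low in replicate 1 of both genotypes. Cspg4 made up most of its sum, while the collagen gene Col1a1 had 0 and 1 counts in R213G, against 0 and 0 in WT. The sum of the resident alveolar macrophage list (10 of 10) was also low in replicate 1, at 588 and 764 CPM in R213G, against 587 and 984 CPM in WT. Its highest gene, Atp6v0d2, was at 293 and 441 CPM in R213G, against 355 and 371 CPM in WT. Chil3, also on the monocyte list, was at 198 and 177 CPM in R213G, against 134 and 503.5 CPM in WT. The markers of this list therefore did not move together. The part of these differences in the growth factor values was not tested.

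The alveolar epithelium list (10 of 11) summed to 587 and 598 CPM in R213G, against 535 and 575.5 CPM in WT. Its highest gene was Pdpn, the surface protein podoplanin, at 289 and 450.5 CPM in R213G, against 320 and 422 CPM in WT, while the surfactant gene Sftpc had 0 and 8 counts in R213G, against 0 and 6 in WT. Both adhesion genes of that list, chosen after their values were seen, were highest in R213G replicate 1: Cdh1 was at 187 and 84.6 CPM in R213G, against 149.8 and 86.8 CPM in WT, and Epcam at 32.3 and 14.8 CPM in R213G, against 14.9 and 9.59 CPM in WT. The endothelial list (5 of 8) summed to 100 and 143 CPM in R213G, against 138 and 119 CPM in WT. Most of it was Vwf, von Willebrand factor, at 90.5 and 136 CPM in R213G, against 129 and 110 CPM in WT, and the endothelial cadherin Cdh5 had 37 and 18 counts in R213G, against 7 and 37 in WT. The platelet list (4 of 8) summed to 18.4 and 34.5 CPM in R213G, against 37.5 and 31.6 CPM in WT, nearly all from the chemokine Pf4, while the platelet chemokine Ppbp had 0 and 2 counts in R213G, against 0 and 11 in WT. The airway epithelium list (4 of 6) summed to 91.3 to 117 CPM per library and was led by Tppp3, the T and NK cell list (6 of 9) to 7.41 to 17.2 CPM, led by Cd4, and the neutrophil list (5 of 8) to 137 to 187 CPM, led by Mmp8. Among T cell markers, Cd3d had 0 and 0 counts in R213G, against 7 and 0 in WT. Cd3e had 75 and 0 counts in R213G, against 37 and 0 in WT. Of the neutrophil markers, S100a9 had 31 and 0 counts in R213G, against 0 and 0 in WT, and S100a8 had 674 and 425, against 366 and 452. The highest sums were those of 3 lists of the monocyte and macrophage lineage. Monocyte markers (10 of 10, led by Fn1) summed to 10692 to 14953 CPM, those of macrophages and the gate (8 of 8, led by Lyz2) to 24890 to 31726 CPM, and those of interstitial macrophages (10 of 10, led by Apoe) to 21846 to 28953 CPM, although Lyve1, which marks a subset of the interstitial cells, had 0 and 9 counts in R213G, against 0 and 1 in WT. No marker tested passed the adjusted threshold.

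**Figure D4:**
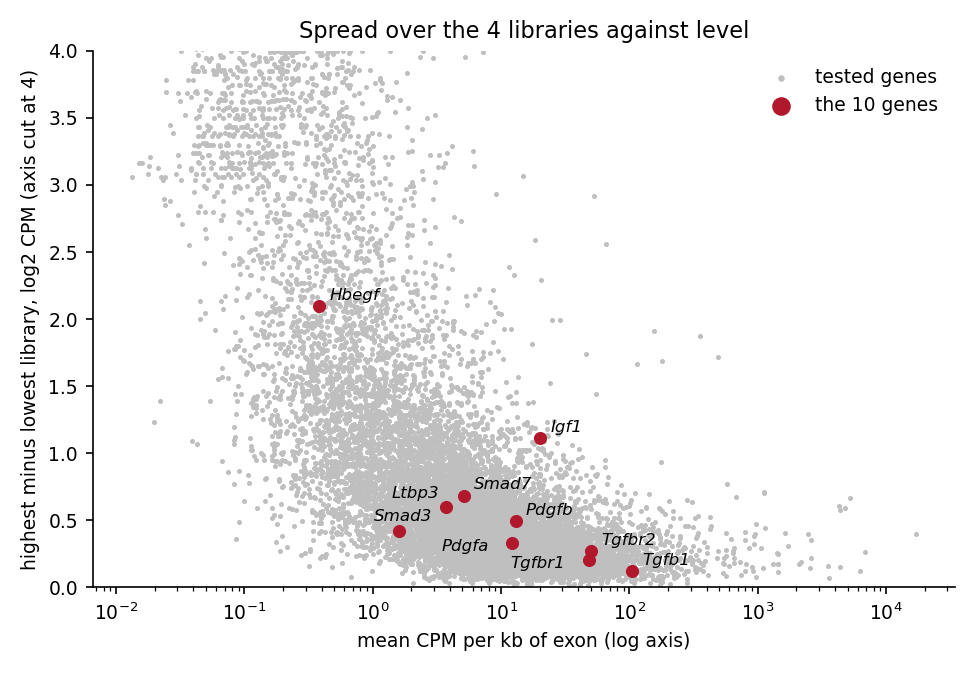
Spread over the 4 libraries (highest minus lowest log2 CPM) against mean CPM per kb on a log axis, for tested genes with a known length (grey) and the 10 genes (red); grey points above 4 are outside the axis. Tgfb1 sits at 0.12, near the bottom of the cloud, and Igf1 at 1.11 and Hbegf at 2.09 are the most spread of the 10.

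The third question was what the rest of each pathway did. Of 128 further symbols in 9 pathway lists, 87 were tested, 0 passed (edgeR, adjusted p under 0.05) and 2, Id1 and Nrg1, had an unadjusted p under 0.05. Of the 87, 29 had a positive fold change, against 49.1% of all tested genes, and the median was -0.08. Non-overlapping libraries were found for 23 of them, which is 26.4% against a background of 28.9%. They were above WT for 7 and below WT for 16, where 13.7% of all tested genes were above and 15.2% below. The share of positive fold changes depended on R213G replicate 1: without it, more genes were positive in each of the 9 lists, the 10 genes included. The number positive went from 6 to 10 of 19 Smads and their regulators and from 3 to 9 of 15 other macrophage growth factors. In the PDGF system it went from 4 to 5 of 5. The medians of 4 of the lists changed sign without R213G replicate 1. Those of other superfamily ligands (-0.24 to -0.27), the PDGF system (0.24 to 0.26) and TGF-beta target genes (0.03 to 0.05) went further from 0.

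Upstream of the receptors, the list of ligands, latency and activation (11 tested, 4 positive, median -0.05, and 0.02 without R213G replicate 1) was led per length by the integrin chains Itgb5 and Itgb1 and by thrombospondin Thbs1, which can activate latent TGF-beta. Itgb5 was at 712 ± 117 CPM in R213G, against 736 ± 80.8 CPM in WT (SD, n = 2 each), and Itgb1 at 610.4 ± 27.5 CPM in R213G, against 602 ± 16.4 CPM in WT. Thbs1 was at 687 and 765 CPM in R213G, against 1040 and 772 CPM in WT, with a log2 fold change of -0.32 ± 0.15 that did not pass (edgeR adjusted p = 0.9996). Plau, the urokinase that turns plasminogen into plasmin, was at 170 and 165 CPM in R213G, against 151 and 150.2 CPM in WT (0.15 ± 0.12). Nrros, which tethers latent TGF-beta on macrophages, and Furin, which cleaves its precursor, were chosen after their values were seen. Nrros was at 313 and 283 CPM in R213G, against 330 and 291 CPM in WT (a log2 fold change of -0.06 ± 0.12), and Furin at 1095 and 945 CPM in R213G, against 896 and 976 CPM in WT (0.12 ± 0.12). Lrrc32, which does the task of Nrros on other cells, had 0 and 14 counts in R213G, against 0 and 50 in WT.

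The receptor list (8 tested, 3 positive, median -0.05) was led after Tgfbr1 and Tgfbr2 by the co-receptor Eng, by Acvrl1, another type I receptor, and by the activin receptor Acvr1b. Eng was at 72.6 and 82.5 CPM in R213G, against 84.0 and 87.0 CPM in WT, and Acvr1b at 62.3 and 67.7 CPM in R213G, against 74.2 and 75.9 CPM in WT. Both were below WT in each R213G library, and neither passed, with a log2 fold change of -0.14 ± 0.14 for Eng (-0.05 without R213G replicate 1) and -0.21 ± 0.14 for Acvr1b. Acvrl1 was at 70.1 ± 9.07 CPM in R213G, against 67.8 ± 8.99 CPM in WT, and Tgfbrap1, which binds the receptors, at 94.7 ± 18.7 CPM in R213G, against 106 ± 1.4 CPM in WT.

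Among Smads and their regulators (19 tested, 6 positive, median -0.16, and 0.02 without R213G replicate 1), the co-repressors Ski and Skil and the common partner Smad4 were the highest per length. Ski was at 547 ± 12.8 CPM in R213G, against 519 ± 29.6 CPM in WT, and Smad4 at 62.5 ± 11.7 CPM in R213G, against 60.9 ± 2.57 CPM in WT. Skil was at 143 and 175 CPM in R213G, against 175 and 191 CPM in WT (a log2 fold change of -0.21 ± 0.14, and -0.07 without R213G replicate 1). Smad5, of the BMP branch, was at 25.8 ± 4.002 CPM in R213G, against 33.2 ± 6.54 CPM in WT.

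TGF-beta target genes (14 tested, 7 positive, median 0.03) included Tgfbi, a secreted adhesion protein, at 3168 and 3086 CPM in R213G, against 2810 and 3066 CPM in WT (0.09 ± 0.11). Junb was at 306 ± 62.0 CPM in R213G, against 265 ± 40.4 CPM in WT, and Id2 at 223 ± 46.1 CPM in R213G, against 195 ± 17.6 CPM in WT. Id1, an inhibitor of helix-loop-helix factors induced by BMP and TGF-beta, had 15.8 and 13.4 CPM in R213G, against 8.47 and 8.22 CPM in WT. Its log2 fold change of 0.80 ± 0.30 had an unadjusted p of 0.0246 and did not pass (edgeR adjusted p = 0.9996), and it was 0.68 without R213G replicate 1. Pmepa1, a Smad feedback inhibitor chosen after its values were seen, had a log2 fold change of 0.14 ± 0.12 and did not pass the test.

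Other ligands of the superfamily (6 tested, 1 positive, median -0.24) were led per length by Gdf15, Gdf3 and Fstl1, with Gdf15 at 35.9 ± 8.13 CPM in R213G, against 38.7 ± 4.81 CPM in WT, Gdf3 at 17.2 ± 2.85 CPM in R213G, against 19.0 ± 1.62 CPM in WT and Fstl1 at 5.80 ± 1.25 CPM in R213G, against 7.29 ± 3.34 CPM in WT. In the PDGF system (5 tested, 4 positive, median 0.24) the third ligand, Pdgfc, was at 64.9 and 80.6 CPM in R213G, against 53.4 and 69.3 CPM in WT, with a log2 fold change of 0.25 ± 0.18. Its level per length relative to Pdgfa was 1.16 and 1.14 times in R213G and 0.896 and 1.10 times in WT. Nrp1, a co-receptor, was at 198 ± 44.4 CPM in R213G, against 207 ± 1.16 CPM in WT. Pdgfrl, a receptor-like protein, was under 1 CPM in every library. The PDGF receptors Pdgfra and Pdgfrb are not analysed here.

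All 7 tested genes of the IGF system had a negative fold change (median -0.22), but 2 of the 7 were positive without R213G replicate 1 (median -0.10). The adaptor Irs2 was at 127 ± 1.39 CPM in R213G, against 132 ± 18.3 CPM in WT, the scavenging receptor Igf2r at 164 ± 44.1 CPM in R213G, against 185 ± 1.55 CPM in WT, and the binding protein Igfbp4 at 13.6 ± 2.73 CPM in R213G, against 17.97 ± 8.14 CPM in WT. In the EGF family list (14 tested, 6 positive, median -0.07, and 0.00 without R213G replicate 1) the tetraspanin Cd9, which binds the HB-EGF precursor, was abundant, at 997 and 1092 CPM in R213G, against 906 and 999 CPM in WT. The metalloproteases Adam9 and Adam15, which can shed membrane proteins, were at 366 ± 10.4 CPM in R213G, against 382 ± 8.22 CPM in WT and at 503 ± 49.4 CPM in R213G, against 535 ± 30.1 CPM in WT, and Adam8 was at 235 ± 52.2 CPM in R213G, against 273 ± 24.4 CPM in WT. Other ligands of the EGF receptor were also low: Egf had 48 and 13 counts in R213G, against 26 and 28 in WT, Areg had 0 and 24 counts in R213G, against 0 and 6 in WT, and Tgfa had 0 and 10 in R213G, against 0 and 0 in WT. Nrg1, the neuregulin ligand of ERBB receptors, was chosen after its values were seen. It had 66 and 116 counts in R213G, against 283 and 194 counts in WT, with a log2 fold change of -1.42 ± 0.50 (edgeR unadjusted p = 0.0184, adjusted p = 0.9996), and -1.09 without R213G replicate 1.

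Other macrophage growth factors (15 tested, 3 positive, median -0.13, and 0.13 without R213G replicate 1) included secreted factors at high levels. Spp1, which encodes osteopontin, was at 5676 and 8486 CPM in R213G, against 7319 and 7316 CPM in WT, and the progranulin gene Grn at 2849 and 3748 CPM in R213G, against 3270 and 3350 CPM in WT. Arg1, which makes ornithine for proline synthesis, was at 569 ± 102 CPM in R213G, against 686 ± 132 CPM in WT. Vegfb was at 26.7 and 36.3 CPM in R213G, against 42.9 and 39.3 CPM in WT (a log2 fold change of -0.38 ± 0.20, and -0.18 without R213G replicate 1). None of the 4 passed the test.

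**Figure D5:**
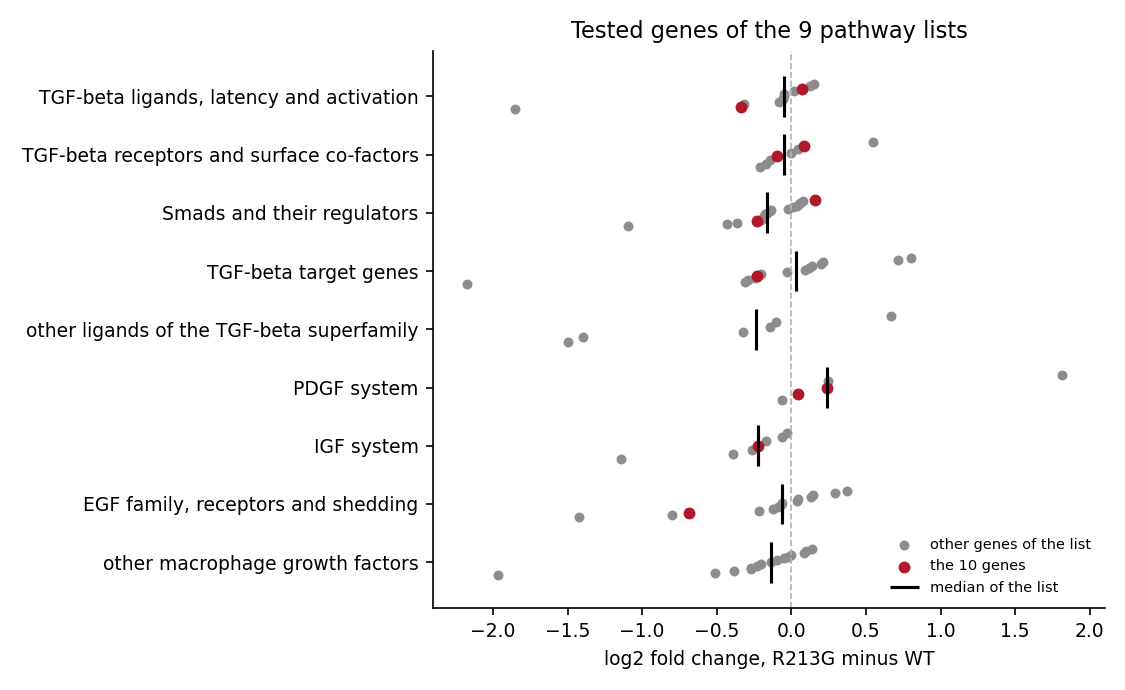
Log2 fold change, R213G minus WT, of every tested gene in the 9 pathway lists, with the 10 genes in red, the other listed genes in grey and a black line at each list's median. The medians lie between -0.24 and 0.24, and no gene shown passed the test.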

How the data were processed

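Recruited alveolar macrophages were sequenced in 4 libraries, 2 R213G and 2 WT. Per the labels' protocols, libraries were directional and made from poly(A) RNA. The deposited values are raw counts for each gene symbol, which the authors left without normalization. The submitters' processing notes name STAR 2.5.1b, featureCounts, Subread 1.4.4 and the build GRCm38; the annotation release, strand setting and treatment of multi-mapping reads are not stated there. Each column carries the short name that a sample's description gives. Every pair of libraries differed by more than sampling noise. The lowest chi-square per degree of freedom, 17.5, was between R213G replicate 2 and WT replicate 2. It was 57.1 between the R213G libraries and 33.2 between the WT libraries, so libraries of the same genotype were less alike than that pair.

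Genotypes were compared by quasi-likelihood in edgeR 4.0.16 (newer form, robust), R213G against WT, with TMM scaling, filterByExpr (13575 genes) and Benjamini-Hochberg adjustment over all tested genes at 0.05, in R 4.3.3. The SE is the size of the log2 fold change divided by the square root of F, and 95% intervals use the model's total degrees of freedom, of which 2 are residual and the rest are borrowed across genes. Within-genotype gaps use log2 CPM with a prior count of 2. Lengths are unions of exons in GENCODE vM21 (96.7% of symbols matched). Total counts were 33488569 to 35176210 per library, and intervals of counts cover counting error only. The calculations were tested on simulated data. DESeq2 1.42.0 and limma 3.58.1 were alternatives.

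The 10 genes and the lists were chosen with earlier results of these data known. Named genes are the 10, and from each list the 3 others of highest CPM per kb and at most 2 of smallest p with a mean of at least 5 CPM; from marker lists, the highest gene and defining markers near 0. Other genes named, including Tgfb2, Tgfb3, Lrrc32, Areg, Tgfa, Egf, Cdh1, Epcam, Smad2 and 6330403L08Rik, were chosen after their values were seen. No gene was named for likeness to the 10 across samples, since 4 libraries are too few for a correlation.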

Additional observations from a re-analysis of the deposited data

How the results depend on the processing

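None of the 10 genes passed the adjusted threshold under any of 8 other settings of scaling, filter, test or block or in any of 4 fits without 1 library, and the lowest adjusted p was 0.219, for a fit without R213G replicate 2, in which 2 of the 10, Igf1 and Smad7, had an unadjusted p under 0.05, as did 1960 of 14478 genes. That fit holds 1 R213G library, assumed to vary like the WT libraries. Hbegf could not be fitted at a mean of at least 5 CPM. Under the 8 other settings no gene changed sign. Without 1 library, 5 kept their sign and 5 did not: the log2 fold change ranged from -0.0184 to 0.1884 for Tgfbr2, from -0.0357 to 0.3706 for Smad3, from -0.6191 to 0.0712 for Smad7, from -0.14 to 0.20 for Pdgfa and from -0.89 to 0.23 for Igf1. Of those that kept it, Tgfb1 ranged from 0.03 to 0.11, Tgfbr1 from -0.16 to -0.03, Ltbp3 from -0.47 to -0.19, Pdgfb from 0.04 to 0.47 and Hbegf from -1.96 to -0.03. List medians without R213G replicate 1, an alternative added after seeing the data, changed sign for ligands, latency and activation (0.0155), Smads and their regulators (0.017), the EGF family (0.0021) and other macrophage growth factors (0.1337).

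Over all genes the count called was 0, and 0 at an adjusted threshold of 0.10. It was 1 with DESeq2 (Clrn2) and 0 to 2 without 1 library (Lars2 and Gm42418, both without R213G replicate 2). The count at an unadjusted p under 0.05 was 302, 150 at a mean of at least 5 CPM and 71 to 1960 without 1 library. With the replicate number as a block these counts were 0 and 298. Same-numbered libraries deviated together only weakly (r = 0.0926 across 13575 genes), and 2 pairs cannot show that the numbers pair the samples. Depth limits Hbegf most, at 20 to 89 counts. The cause of these dependences was not tested.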
